A study of Drosophila melanogaster with 13 samples.

Results

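The CREB-binding sites considered here were those without a nearby binding site of the coactivator CRTC in mushroom body (MB) nuclei of adult Drosophila melanogaster. A site qualified when no entry of the CRTC site list lay on the same chromosome within 200 bp, measured edge to edge. By this rule 2182 of the 7243 CREB sites were without CRTC, and the other 5061 had a CRTC site within 200 bp. The CRTC list held 5990 sites, and a further table gave 4995 CREB/CRTC regions with their genes.

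The sites came from chromatin immunoprecipitation sequencing (ChIP-seq) of flies of the strain given as CS10, outcrossed to the line w(CS10), males and females together. They expressed FLAG-KASH, a FLAG-tagged anchor of the outer nuclear membrane, under MBp-LexA in the MB, so that MB nuclei could be captured with an anti-FLAG antibody. The sequenced libraries were 3 CREB and 3 CRTC libraries from flies 1 day after spaced training (repeated odor and shock pairings separated by rests, which give long-term memory), 3 CREB and 3 CRTC libraries from naive flies, and 1 input DNA library from naive flies. The driver labels the α/β and γ lobes strongly and the α'/β' lobes weakly, many flies were pooled for each preparation, and the age of the flies was not given in the sources used here. All groups carried the transgenes. The antibody to CREB had been raised against the blocker isoform and covers the major isoforms, so activator and repressor forms cannot be told apart at a site.

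CREB is a transcription factor that binds DNA through its basic leucine zipper and depends on coactivators to raise transcription. CRTC is such a coactivator: it waits in the cytoplasm while phosphorylated by salt-inducible kinases, enters the nucleus once dephosphorylated by calcineurin, and binds the CREB leucine zipper. CBP, a histone acetyltransferase, is another coactivator and is recruited when CREB itself is phosphorylated. In the MB, the center of olfactory memory in the fly brain, CREB is known for its part in long-term memory.

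Each list gave 1 entry with 1 peak score for a site, and no column named a state, a replicate or a library. Peaks found in at least 2 of 3 replicates had been kept, and how the naive and trained libraries entered a list was not given in the sources used here. No error between replicates could therefore be computed, and no site could be assigned to a state. The lists gave no read counts, and the depth behind a site is unknown. A CREB site without CRTC is therefore one where no CRTC peak passed the thresholds of the authors, not one shown to lack CRTC. The authors' limit on read density was higher for CRTC peaks than for CREB peaks. What this did to the scores and widths given below was not tested. Intervals given below are Wilson intervals for shares and order-statistic intervals for medians, at 95%. They cover counting error only, and sites close to each other are not independent. Binding sites are no measure of expression. Of the marker lists, 9 MB neuron genes, 5 general neuron genes and 4 glial genes had a CREB/CRTC region, 1 photoreceptor gene had one, and no muscle or fat body gene had one. The lists differ in length, and these are counts, not shares of a list. They were not set against the share of all genes with a region, so cell types cannot be ranked by them.

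CREB sites without CRTC had lower scores and were narrower than those with CRTC. The score is the value that the authors' peak calling gave each site, on a scale not given in the sources used here. Their median score was 2.46 (95% interval 2.39 to 2.50), against 4.56 (4.45 to 4.65) for CREB sites with CRTC. The middle 50% of scores lay between 1.92 and 3.30 without CRTC, and between 3.01 and 7.85 with CRTC. Both groups reached down to the lowest score in the list, 1.50, and up to 17.2 without CRTC and 63.6 with CRTC. Scores of at least 5 were found at 151 CREB sites without CRTC (6.92%) and at 2232 with CRTC (44.1%). Scores of at least 10 were found at 17 sites without CRTC (0.779%) and at 840 with CRTC (16.6%). The groups therefore overlapped over the whole range of scores without CRTC.

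Widths differed in the same direction. The median width was 65 bp (64 to 67) without CRTC and 98 bp (96 to 100) with CRTC, and sites of at least 100 bp made up 11.9% of the CREB sites without CRTC and 48.8% of those with CRTC. Sites narrower than 50 bp made up 28.3% without CRTC and 9.09% with CRTC. The false discovery rate listed for each site was above 0.005 at 71.0% of CREB sites without CRTC and at 26.4% of those with CRTC.

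**Figure D1:**
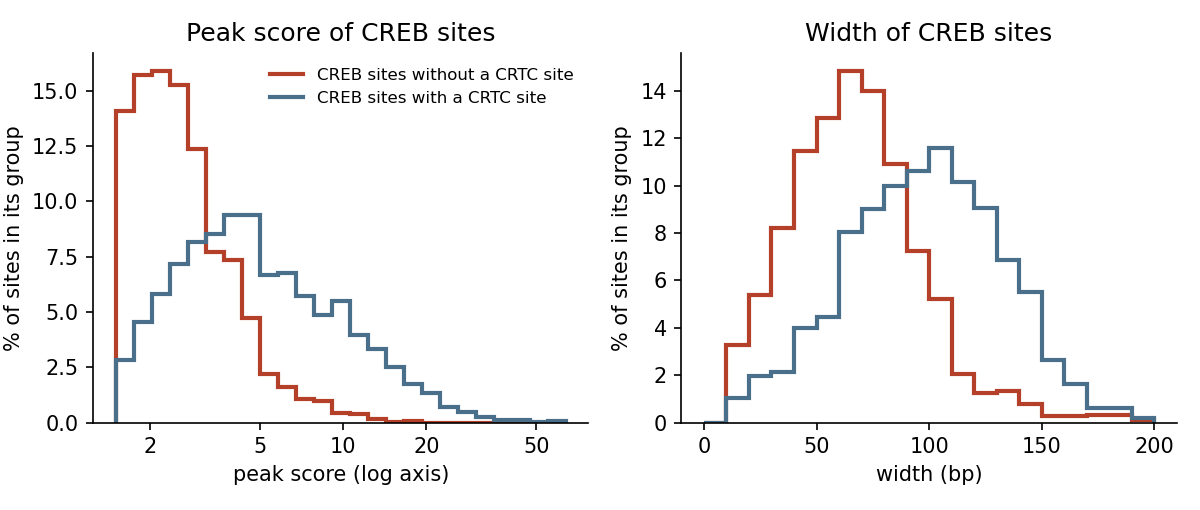
Distribution of peak score (left, log axis, no unit) and width (right, bp) of 2182 CREB sites without a CRTC site and 5061 CREB sites with one, as the percentage of sites in each group. The sites without CRTC peak at lower scores (median 2.46 against 4.56) and smaller widths (median 65 bp against 98 bp), and the distributions overlap.

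Width was also compared within 10 score classes of equal size. In each of the 10 classes the median width without CRTC was below that with CRTC. It was 56 bp against 60 bp in the lowest class, 71 bp against 88 bp in the fifth and 108 bp against 126 bp in the highest. The widths of the sites thus differed also within score classes. Scores were not alike in the highest class, which ran from 10.8 to 63.6. It held only 14 sites without CRTC, none above 17.2. The 5 lowest classes held 80.7% of the CREB sites without CRTC. Seen by width alone, 57.4% of CREB sites up to 50 bp wide were without CRTC, against 7.29% of those of 126 to 199 bp.

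The number of sites per 100 bp of distance fell before the limit and changed little across it, with no gap there. Of all CREB sites, 4532 shared a base with a CRTC site, 431 lay 1 to 100 bp away and 98 lay 101 to 200 bp away. Beyond the limit, 87 sites lay 201 to 300 bp away and 76 lay 301 to 400 bp away. The CREB sites just beyond the limit, without CRTC, were beside Pkn (201 bp, score 2.27), CG43736 (203 bp, score 3.92), hdc (204 bp, score 1.61) and Tis11 (205 bp, score 4.84). Those just within it, with CRTC, were beside knrl (196 bp, score 2.93), CG42337 (198 bp, score 3.57) and Ssdp (200 bp, score 2.91). The scores just within the limit lay within the range of those just beyond the limit.

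On the X chromosome a larger share of CREB sites was without CRTC than on the other arms. It was 501 of 1362 sites on X, 36.8% (34.3 to 39.4), against 1681 of 5881 on the other arms together, 28.6% (27.4 to 29.8). The difference of 8.20 percentage points had a counting interval of 5.42 to 11.0 (Newcombe). The 4 large autosomal arms lay close together, at 29.2% on 2L, 28.8% on 2R, 27.6% on 3L and 28.6% on 3R. The small chromosome 4 held 12 such sites of 29, 41.4% (25.5 to 59.3), an interval wide enough to include all the other arms. CREB sites without CRTC on X had a median score of 2.64, against 2.41 on the other arms. The order of X and the other arms was the same within score classes, and the share without CRTC was higher on X in each of the 10. The difference within classes ran between 2.55 and 20.6 percentage points. It was widest in the fifth class, with 45.7% on X and 25.2% on the other arms, and the intervals of the 2 shares were apart in 3 of the 10 classes.

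The X difference was not kept when weaker CRTC sites were left out. There were 0.742 CRTC sites for each CREB site on X and 0.847 on the other arms, and the median score of all CRTC sites was 4.72 on X and 4.11 on the other arms. When only CRTC sites of the higher-scoring 50% were counted, 58.7% of CREB sites on X and 59.7% of those on the other arms were without one, a difference of -0.95 points whose interval (-3.86 to 1.93) included 0. With the higher-scoring 50% of both lists the shares were 31.7% on X and 29.1% on the other arms, a difference of 2.69 points whose interval (-1.01 to 6.55) included 0.

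**Figure D2:**
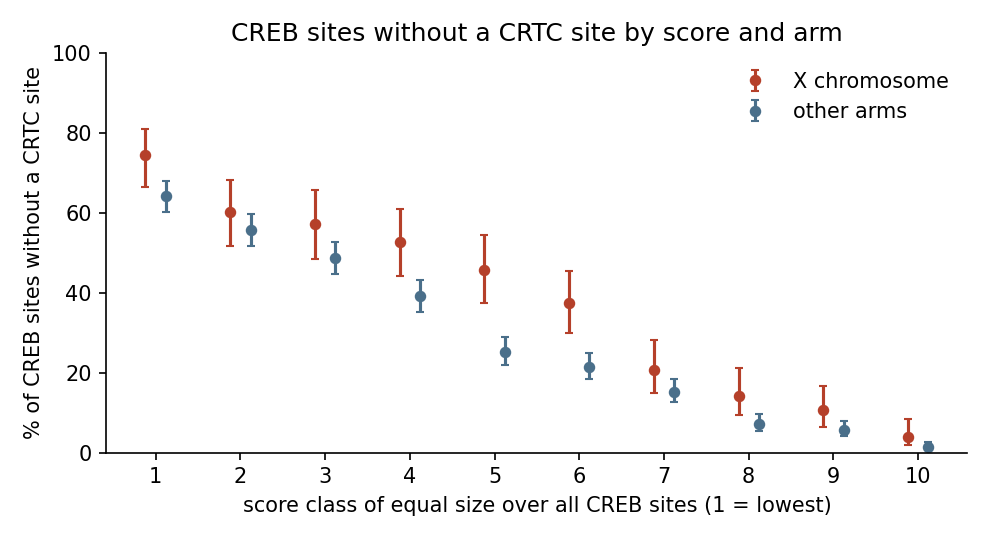
Percentage of CREB sites without a CRTC site in 10 classes of the CREB peak score of equal size (1 = lowest), on the X chromosome and on the other arms, with 95% Wilson intervals as bars. The share falls with score on both, and the X value is the higher in all 10 classes, by 2.55 to 20.6 percentage points. With only the higher-scoring 50% of CRTC sites the shares over all scores were 58.7% on X and 59.7% on the other arms, a difference whose interval included 0.

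CREB sites without CRTC were found both beside CREB/CRTC regions and far from any. The median distance to the nearest CREB/CRTC region was 5895 bp (5433 to 6473), and the middle 50% of sites lay between 1566 and 15913.5 bp. Of the 2182 sites, 421 (19.3%) were within 1000 bp of a region, 1003 (46.0%) within 5000 bp, and 115 (5.27%) more than 50000 bp away. Median scores varied little with distance, between 2.31 and 2.84 in 7 distance classes. The share with a score of at least 5 was 15.0% at 201 to 500 bp, 12.7% at 501 to 1000 bp and 8.63% at 1001 to 2000 bp, and it lay between 4.39% and 6.09% in the classes beyond 2000 bp.

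The sites most distant from any region came from every arm. Of the 115 sites more than 50000 bp away, 30 were on 3L, 27 on X, 21 on 2L, 20 on 3R, 10 on 2R and 7 on chromosome 4. The tip of X held 5 of them, between positions 139903 and 231357, with scores of 2.11 to 8.33, and CG17896 was the gene of their nearest region. On chromosome 4, 6 of the 7 had Lin29 as the gene of their nearest region. Their scores were low, between 1.59 and 2.64.

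**Figure D3:**
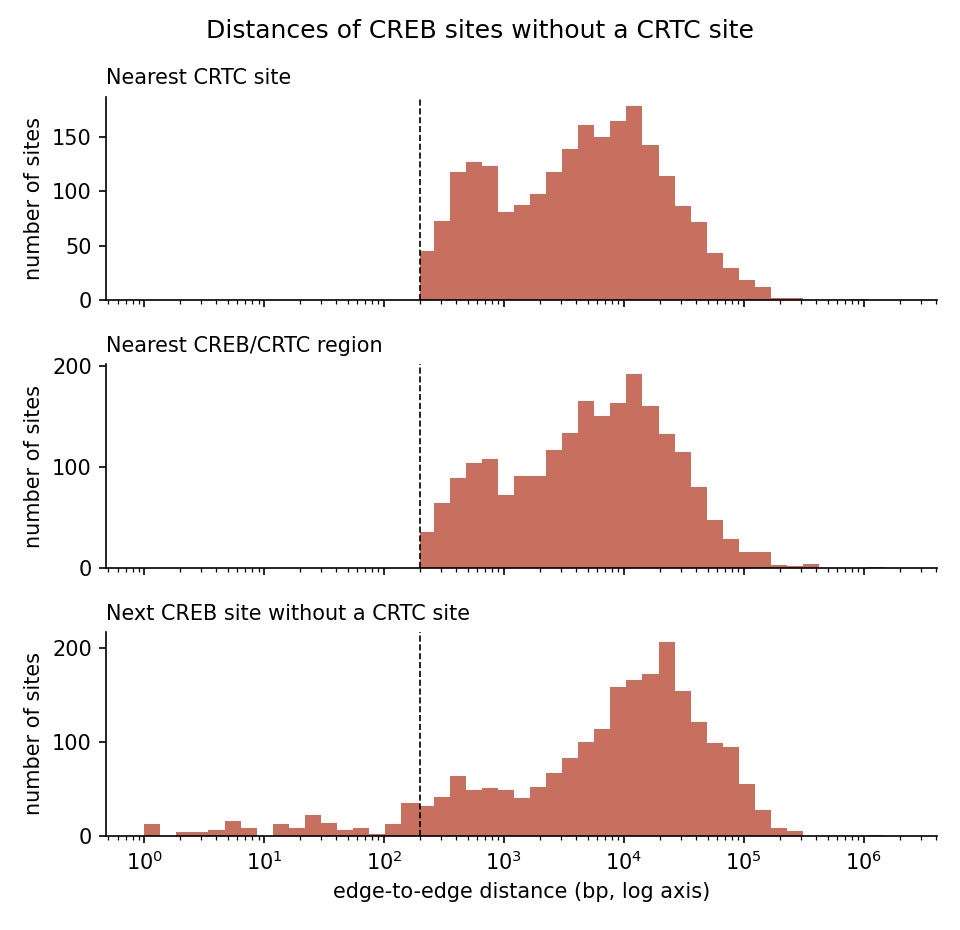
Edge-to-edge distance (bp, log axis) of the 2182 CREB sites without a CRTC site to the nearest CRTC site (top), the nearest CREB/CRTC region (middle) and the next CREB site of the same kind (bottom), as the number of sites. The dashed line marks the 200 bp limit of the rule, which leaves the upper 2 plots empty on its left. The median distance to a region was 5895 bp, and 19.3% of sites had another such site within 1000 bp.

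A smaller share of CREB sites without CRTC than of those with CRTC had another CREB site close by. A CREB site of any kind lay within 1000 bp of 738 sites without CRTC, 33.8% (31.9 to 35.8), against 2692 with CRTC, 53.2% (51.8 to 54.6). In the 5 lower score classes the shares were 32.3% without CRTC and 53.0% with CRTC. The share was lower without CRTC in 8 of the 10 classes. In the other 2 it was higher, at 54.8% without CRTC against 54.7% with CRTC, and in the highest class at 64.3% (9 of 14 sites) against 55.0%. At the other end, 821 CREB sites without CRTC (37.6%) had no CREB site of any kind within 5000 bp. The rule has a part in such shares, since a CREB site beside a CRTC site also makes its close neighbors sites with CRTC.

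Among themselves, 422 sites (19.3%) lay within 1000 bp of another CREB site without CRTC. They formed 201 chains, of which 183 were pairs, 16 held 3 sites and 2 held 4. Some pairs were very close: 112 sites lay within 50 bp of another CREB site without CRTC, and once CREB sites up to 100 bp apart were merged, the share with a neighbor was 14.5%. Another count of 422, in part the same sites, lay within 1000 bp of a CREB site with CRTC. In these pairs the site without CRTC had the lower score in 320 cases (75.8%), with a median of 2.53 against 4.67 for its partner, and was narrower in the median (62 bp against 100 bp).

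The 151 sites with a score of at least 5 differed from the other 2031 in where they lay. A CREB/CRTC region was within 1000 bp of 38.4% of them, against 17.9% of the sites with lower scores. Another CREB site without CRTC was within 1000 bp of 32.5%, against 18.4%, and 30.5% were on X, against 22.4%. Their median width was 90 bp, against 64 bp. Not all were close to regions, since 56 of the 151 were more than 5000 bp from any.

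The site with the highest score lay beside E2f, which encodes a transcription factor that drives genes of DNA replication and the cell cycle. It spanned 17458426 to 17458554 on chromosome 3R (dm3, as in all positions here) and scored 17.2, and a neighbor 212 bp on, at 17458766 to 17458890, scored 15.3. The only CREB site with CRTC at this locus, 434 bp farther, scored 6.49. Here the sites without CRTC were thus the higher ones, at a locus named for the highest score without CRTC. A weak CRTC site (score 1.97) with no CREB site of its own lay 362 bp from the first, and the other CRTC site of the stretch lay 406 bp from the next.

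Sin3A, the scaffold of a histone deacetylase corepressor complex, had 4 CREB sites without CRTC within a few kilobases on 2R. Their scores were 9.62, 7.47, 13.6 and 7.35 along the chromosome, interleaved with CREB sites with CRTC that scored 9.55 and 6.90. Within the stretch drawn below, the ranges of the 2 kinds of site overlapped. The highest score there was at a site without CRTC, at 8476591 to 8476739. Sin3A had 5 CREB/CRTC regions, and scores at those outside the stretch were not compared.

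The longest chain of high scores was on X. Its nearest CREB/CRTC region was that of CG32699, named LPCAT (a phospholipid acyltransferase) in the reference. The 4 sites of the chain lay at 9478371 to 9478533, 9478648 to 9478776, 9479198 to 9479252 and 9479800 to 9479888, with scores of 11.7, 16.9, 10.3 and 7.33. The region was 4353 bp from the chain, and the site at 9479198 was 5180 bp from it, beyond the 5000 bp used below for assigning genes. The CREB sites with CRTC in the stretch drawn at CG32699 scored only 2.96 and 2.23. The chain and the region therefore did not overlap in score. The other chain of 4, beside sfl, which encodes an enzyme of heparan sulfate synthesis, spanned 798 bp with scores between 2.50 and 5.06. Its sites starting at 6488713 and 6488781 were only 5 bp apart.

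Between the regions of the neighboring ferritin genes Fer1HCH (heavy chain) and Fer2LCH (light chain) lay 3 CREB sites without CRTC. The site of 9.94 was nearest to the Fer1HCH region, and those of 6.64 and 3.04 were nearer to a Fer2LCH region. The CREB sites with CRTC scored 13 at the Fer1HCH region, and 9.0 and 10.7 at those of Fer2LCH. CG42258 on X had 2 CREB sites without CRTC of 11.2 and 8.84, between CREB sites with CRTC of 9.84 and 7.93. In the stretches drawn, the highest CREB score at the ferritin genes was at a site with CRTC and at CG42258 at one without.

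**Figure D4:**
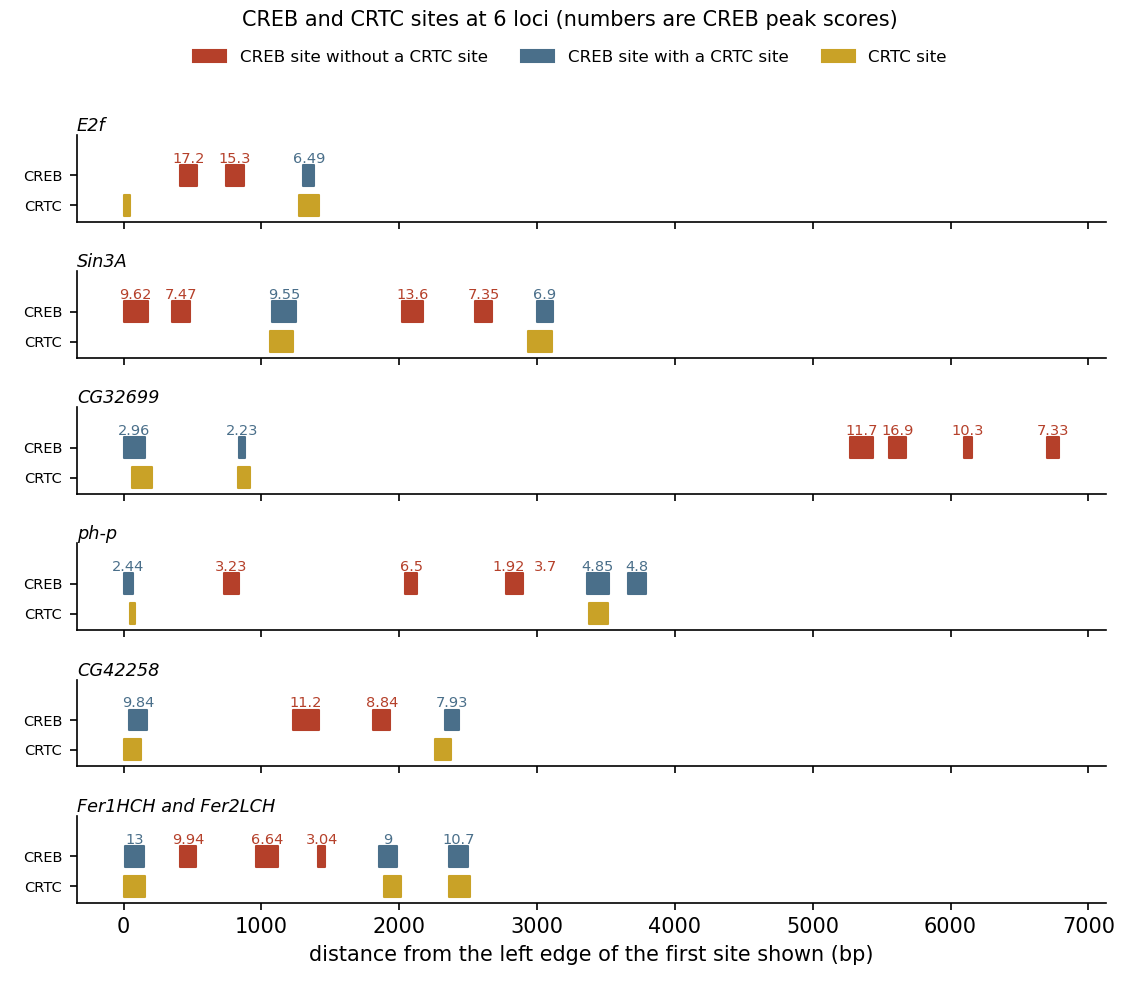
CREB sites without a CRTC site, CREB sites with one and CRTC sites at 6 loci, drawn to scale as bars along the chromosome (bp from the left edge of the first site shown), with the peak score above each CREB site. In the stretches drawn at E2f and CG32699 the CREB sites without CRTC carry the higher scores (17.2 and 15.3 against 6.49, and 7.33 to 16.9 against 2.23 and 2.96). Regions of the genes outside the stretches are not drawn. Both loci were picked for the highest scores without CRTC. Of all 422 sites without CRTC within 1000 bp of a CREB site with CRTC, 320 had the lower score. At Sin3A both kinds are interleaved, and the 3 sites without CRTC at the ferritin genes lie between the region of Fer1HCH and those of Fer2LCH.

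The remaining sites of the highest 10 lay at varied distances from regions. The site whose nearest region was that of CG11537 on 3L (score 13.7, 70 bp wide) was 6421 bp from it. A site of 12.7 was 17368 bp from its nearest region, that of HERC2, which encodes a ubiquitin ligase. Another of 11.9 was 12001 bp from that of koi, which encodes a SUN-domain protein of the nuclear envelope. All of these were beyond the 5000 bp used below for assigning genes. The highest scores were thus found both next to regions and far from them. Close to regions were the sites of ovo, a zinc finger transcription factor of the germ line (score 12.5, 210 bp), and E(spl)m3-HLH, a Notch target and transcriptional repressor (score 11.6, 582 bp).

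The 1003 sites within 5000 bp of a region were assigned to 763 genes, 26.9% of the 2833 genes in the binding table. A region's gene is the one the authors assigned to it, so a site may lie closer to another gene. One site was found at 581 genes, 2 at 133, 3 at 40 and 4 at 9. The genes with 4 were Sin3A, sfl, ph-p (a Polycomb group protein), SNF4Agamma (a subunit of the AMP-activated kinase), Mnt (an antagonist of Myc), kay (the fly Fos), shn (a zinc finger protein of BMP signaling), CG34172 and CG4404. Scores at SNF4Agamma were 3.37, 5.68, 3.11 and 1.75, and at CG4404 they were 1.64, 2.07, 2.21 and 1.75. The genes with the most sites thus included some with low scores throughout.

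The share of genes with a CREB site without CRTC was larger for genes with more CREB/CRTC regions: it was 23.0% of the 1719 genes with 1 region, 29.0% of the 878 with 2 or 3, and 47.9% of the 236 with 4 or more. More regions also offer more sequence within 5000 bp, and no allowance was made for that. At 82 genes the sites without CRTC outnumbered the regions. Of the 1003 sites, 175 (17.4%) lay between 2 regions of the same gene.

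The gene lists were compared with the background of 0.201 CREB sites without CRTC per region over the whole binding table, and with the 26.9% of all genes that had such a site. The lists differ in regions per gene, so a list can lie below 1 background and above the other. Some genes, among them Pdp1, vri, dm, CadN and elav, were on more than 1 list, so the counts of the lists are not separate. Of 12 clock genes with a region, 8 had at least 1 such site, with 14 sites for 39 regions (0.359 per region). Clk, the positive transcription factor of the clock, had sites of 7.67, 3.37 and 1.59, the highest in this list. Pdp1, an activator of Clk transcription, had 3 sites with scores of 2.33 to 4.36. Beside wdb, a regulatory subunit of protein phosphatase 2A, the scores were 5.60 and 2.18, and beside sgg, a kinase that acts on clock proteins, they were 2.14 and 1.59. Scores beside the clock genes thus ran up to 7.67, with several near the minimum.

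Synaptic vesicle and transmitter genes had sites at 9 of 16 genes, 12 sites for 26 regions (0.462 per region), with a median score of 3.84. Syx1A, the SNARE protein syntaxin of the presynaptic membrane, had sites of 5.75 and 3.21. Ddc, the dopa decarboxylase of dopamine and serotonin synthesis, had sites of 4.89 and 3.37, and Rim, a scaffold of the active zone, had sites of 3.96 and 4.63. Syn, the vesicle protein synapsin, had 1 of 4.56. The median was above the 2.46 of all CREB sites without CRTC, on 12 sites. No test was made of any list.

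Ion channel and receptor genes had sites at 10 of 24 genes (41.7%), 12 sites for 38 regions (0.316 per region), with a median score of 2.22 and none above 3.13. The highest was at Nmdar2, an NMDA receptor subunit, which had sites of 3.13 and 2.48. Shal, a potassium channel, had sites of 1.90 and 2.18 on 3L that lay close beside each other, and Sh, also a potassium channel, had 1 of 2.72. At nAcRalpha-34E, a nicotinic receptor subunit, the score was 2.50. None of the 12 sites in this list reached 3.30, the upper quartile of all CREB sites without CRTC.

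Genes of cAMP, calcium and learning signaling had sites at 10 of 32 genes (31.2%), 14 sites for 77 regions (0.182 per region), with a median score of 2.20. Akap200, an anchor of protein kinase A, had 3 sites of 1.80, 1.71 and 2.41. The highest score was at CrebA, a transcription factor of the secretory pathway in the CREB3 family (5.11). The 14-3-3zeta gene, whose product binds phosphorylated proteins, had sites of 2.83 and 2.14, and dnc, the cAMP phosphodiesterase, had sites of 1.52 and 2.25. A site of 1.88 lay beside CrebB-17A, which encodes CREB itself, and one of 2.13 beside rut, the calcium-responsive adenylyl cyclase. CrebB-17A, rut and Ac3 were chosen after their values were seen. All but 2 of the 14 sites, those at CrebA and at the adenylyl cyclase gene Ac3 (4.89), scored below 3.

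On the list of transcription factor genes, 18 of 51 had sites, 32 in all for 206 regions (0.155 per region). This list also held the kinase gene tlk and elav, an RNA-binding protein gene, and their sites are in these counts. Mnt had scores of 1.74, 5.15, 2.84 and 4.63, kay had 2.91, 1.72, 4.46 and 2.91, and Atf3, a basic leucine zipper factor, had 3.72, 3.30 and 3.75. The ratio to regions was below the background of 0.201. The share of genes with a site, 35.3%, was above the 26.9% of all genes. Among nuclear receptor and ecdysone genes, 7 of 24 (29.2%) had sites, 8 in all for 103 regions. That was 0.0777 per region, the lowest ratio to regions of the 10 functional lists. The highest was at ftz-f1, a nuclear receptor (6.55). Eip75B, a nuclear receptor that binds heme, had sites of 2.15 and 2.58.

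Chromatin genes had sites at 10 of 25 genes (40%), 16 for 82 regions (0.195 per region). Sin3A was not on this list. The neighboring duplicated genes ph-p and ph-d had 4 and 2 of them, at ph-p with scores of 3.23, 6.50, 1.92 and 3.70, and at ph-d with scores of 2.68 and 4.04. The authors removed reads of low mapping quality. Whether reads were shared between these similar copies was not tested. Sites at kis, a chromodomain remodeling protein, scored 3.11 and 2.20, and those at osa, a subunit of the Brahma remodeling complex, scored 2.78 and 2.04.

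Insulin and TOR genes had sites at 5 of 13 genes (38.5%), 7 for 43 regions (0.163 per region). The highest score was at InR, the insulin receptor (6.34). Sites of 3.32 and 2.47 were at eIF-4E, the cap-binding translation factor, and of 2.00 and 2.07 at the kinase gene Akt1. RNA-binding protein genes had sites at 12 of 31 genes (38.7%), 13 for 74 regions (0.176 per region), with the lowest median score of the functional lists, 2.02. A2bp1, a splicing regulator, had 2 of them (2.02 and 2.87), and bol, a translational regulator of the germ line, had the highest (4.00). Adhesion and guidance genes had sites at 9 of 41 genes (22.0%), 1 each (0.129 per region). Scores there were 3.87 at Fas2 and 3.72 at CadN, both homophilic adhesion molecules, and 2.90 at dlg1, a synaptic scaffold.

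Of 10 candidate genes of the study, which had been picked with these libraries, 2 had sites, 3 in all for 34 regions (0.0882 per region). The ETS repressor gene aop had sites of 3.52 and 2.38, and Eip71CD, a methionine sulfoxide reductase, had 1 of 4.86. Among the 9 MB neuron markers with a region, 5 (55.6%) had 1 site each, for 11 regions (0.455 per region), with scores of 6.44 at trio, 4.20 at dac, 3.87 at Fas2, 2.52 at Pka-C1 and 2.13 at rut. The site at trio was only 14 bp wide. Of the other markers, 2 of 5 neuron genes (Rim and elav) and 1 of 4 glial genes (moody) had sites, and the 1 photoreceptor gene had none.

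Few CREB sites without CRTC lay at a transcription start site (TSS) that could be placed. The binding table gives the distance of each region to the TSS of its gene, from which the TSS was worked out where the strand of the gene could be told. This held for 3595 of the 4995 regions (72.0%) and placed 600 of the 1003 sites. Where the nearest region itself covered the TSS, the TSS was treated as lying anywhere within that region, even if another region would place it. Distances were then taken to the near edge of the region. They are minimum distances to that TSS, and the shares within a distance limit are upper values for it. Other TSSs, of the same or a neighboring gene, were not considered, so a site may lie nearer to one of them. Of the 600 placed sites, 18 (3.00%, 1.91 to 4.69) covered the TSS, 117 (19.5%, 16.5 to 22.9) lay within 500 bp of it and 205 (34.2%) within 1000 bp. Among 3581 placed CREB sites with CRTC, 30.9% covered the TSS or touched a region that covered it, and 59.3% lay within 500 bp. The TSS was known only through regions that hold a CRTC site, and the sites without CRTC are at least 201 bp from every CRTC site, so the rule itself set part of this difference. Of 582 placed sites that did not cover the TSS, 322 (55.3%, 51.3 to 59.3) were upstream of it.

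The sites within 500 bp of a TSS had a median score of 2.50 (2.27 to 2.85), against 2.55 (2.45 to 2.66) for those placed farther away. Scores of at least 5 made up 17.9% of the first and 8.28% of the others. The site of 15.3 at E2f, that of 13.6 at Sin3A and that of 11.2 at CG42258 covered the TSS, and the site of 17.2 at E2f lay 241 bp downstream. Next came Msp-300, a nesprin that anchors nuclei, with a site of 10.7 that lay 312 bp upstream. The site of 9.21 at eIF-4a, the translation initiation helicase, lay at least 370 bp upstream. At Clk the site of 7.67 lay at least 283 bp downstream. At eIF-4a and Clk the nearest region covered the TSS, so only a minimum distance is given. At Clk another region, listed 3154 bp downstream, places the TSS within the covering region, beyond its near edge.

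The other 15 sites that covered a TSS scored between 1.50 and 5.75. They included Syx1A (5.75), Mekk1, a kinase of the stress response (5.72), Tm1, a tropomyosin (2.88), Akap200 (2.41), par-1, a polarity kinase (2.27), and Sik3, a salt-inducible kinase of the family that phosphorylates CRTC (1.79). Mekk1 and Sik3 were close to a CRTC site, at 217 and 213 bp. These 6 genes were chosen from the 15 after their values were seen. Apart from E2f, Sin3A and CG42258, no site covering a TSS had a score of 10 or more.

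**Figure D5:**
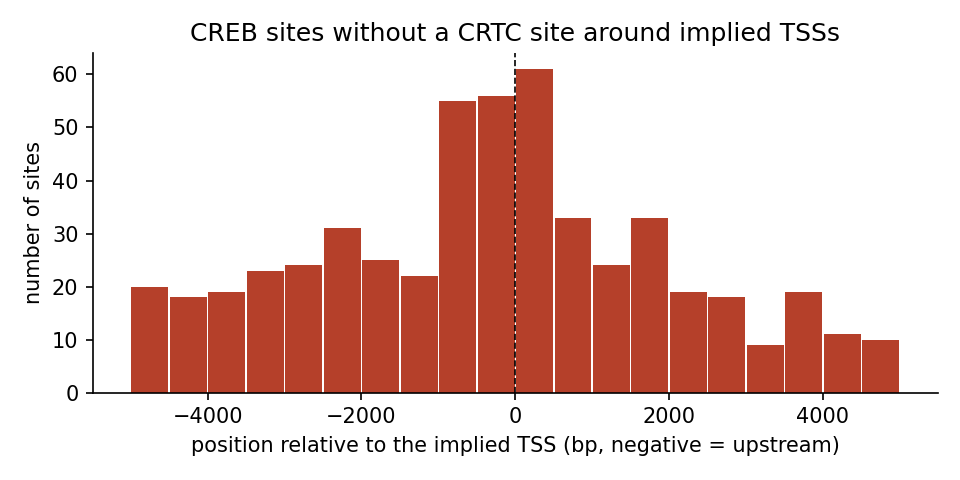
Number of CREB sites without a CRTC site by position relative to the TSS worked out for the gene of their nearest CREB/CRTC region, in bins of 500 bp (negative = upstream), among the 600 placed sites, with those beyond 5000 bp not drawn. The bins next to the TSS are the fullest together with the one from 1000 to 500 bp upstream, and 117 sites lie within 500 bp. The 18 sites that cover the TSS are all drawn in the first bin downstream, which holds 61. Where a region covers the TSS, positions are taken from its near edge.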

How the data were processed

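Per the labels and the study's methods, the authors aligned paired reads to the fly genome dm3 with CLC Genomics Workbench. They called peaks in Strand NGS with 2 peak finders and kept peaks found by both and in at least 2 of 3 replicates. They also filtered on read density, with a higher limit for CRTC than for CREB. The deposited lists give the score and the false discovery rate (a q-value) of each site. Units of the peak score and its normalization were not given in the sources used here. The deposited binding table gives positions, genes and distances to a TSS, and for 515 further lines no site. Its columns of the authors' own comparison, fold changes and adjusted p-values for CREB and CRTC made with DESeq2, were not used.

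Sites were matched by edge-to-edge distance on the same chromosome. The near-edge, strand-signed convention of the TSS distances was worked out from the table: for 1206 of 1641 neighboring regions of 1 gene exactly 1 strand gave a shared TSS (tolerance 2 bp). Matching and strand steps were tested on simulated data. Of 2833 gene symbols, 2303 were current and 476 were synonyms in the RefSeq gene table, which was used for names only. No test was run, since sites are not replicates. Named genes were those of the 10 highest scores, those with the most sites, the longest chains, up to 4 for each gene list (most sites, then score), the candidates, the sites beside the distance limit, and the highest scores within 500 bp of a TSS; others are said to be chosen after their values were seen, as are the genes of the most distant sites. Members, lists and rules were chosen with earlier results of these data known. Genome sequence was not analysed here. Alternatives were other distance limits, centers, score and width filters, and merged sites. Python 3.11.15 was used with NumPy 2.4.6, pandas 2.3.3, SciPy 1.17.1, statsmodels 0.14.6 and Matplotlib 3.10.9.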

Additional observations from a re-analysis of the deposited data

How the results depend on the processing

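No paired analysis was possible because the lists carry no value for a replicate or a library; for the same reason no replicate could be left out. Of 62 alternatives, 31 moved a value by less than its limit (1.5 times for counts, the counting interval for others), 30 moved it by more and 1 reversed it. The median score stayed below that of CREB sites with CRTC in 7 of 7 alternatives. None of the 10 alternatives for the X difference had been planned for it. X had a larger share without CRTC than the other arms in 9 of 10, with an interval above 0 in 7. The exception, chosen after seeing the data, kept the higher-scoring 50% of CRTC sites with all CREB sites: the X difference was -0.95 points (interval -3.86 to 1.93), 4310 CREB sites were without CRTC, and 18.6% of them were on X. With the higher-scoring 50% of both lists, 1076 sites were without CRTC, 21.1% of them on X, and the X difference was 2.69 points. With sites of at least 100 bp, the count was 811, the median score 4.10, the X share 16.9% and the X difference 2.92 points.

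With only the higher-scoring 50% of the CREB list, 426 sites were without CRTC, their median width was 80 bp, 29.1% were on X, 12.7% had another such site within 1000 bp, the median distance to a region was 4433.5 bp, 24.6% were within 1000 bp of one, and they were assigned to 193 genes. Of those placed, 26.2% were within 500 bp of a TSS. Requiring only that no base be shared gave a median score of 2.51, and a limit of 500 bp gave a median distance to a region of 7278 bp. Merging sites up to 100 bp apart, also chosen after seeing the data, gave 14.5% with another such site nearby. Other values follow from their distance limits: 14.4%, 23.9% and 34.7% had another such site within 500, 2000 and 5000 bp; 9.17%, 28.3% and 46.0% were within 500, 2000 and 5000 bp of a region; the genes numbered 355 at 1000 bp and 1314 with no limit; and 6.67% and 34.2% of placed sites were within 200 and 1000 bp of a TSS. The lists give no read count at a site, so a CRTC peak just under the authors' threshold cannot be told from none.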

Other observations

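A few CREB sites without CRTC had a CRTC site nearby that itself had no CREB site within 200 bp. Within 500 bp there were 57 such CREB sites, 17 of them on X, beside 55 of the 995 CRTC sites without CREB. Their median score was 2.50, and the median score of those CRTC sites was 2.64, on scales that may differ between the lists. The site of 17.2 at E2f was the only one of the 57 with a CREB score of at least 5. For 356 of the 2182 CREB sites without CRTC (16.3%), the nearest CRTC site of any kind was one without CREB.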
